A study of Rattus norvegicus with 4 samples.

Results

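Muscle satellite cells were studied in single-cell RNA sequencing of rat esophagus after X-ray exposure. Its members were chosen by their own RNA counts, as the cells with RNA of myogenic regulators and of muscle surface proteins and with little RNA of other cell types. Of 40724 cells kept from 4 libraries, 738 (1.81%) were members, and 611 of these came from the unirradiated control. A member had at least 2 unique molecular identifiers (UMIs, each tagging 1 captured transcript) spread over at least 2 of the 7 genes Pax7, Myf5, Myod1, Chrdl2, Cdh15, Musk and Chrna1. It also had 0 UMIs of Ptprc and Myh11, at most 5 Krt5 UMIs per 10000 and at most 100 Col3a1 and Dcn UMIs per 10000. A further condition on Pecam1 could not be applied, because no feature in the count matrices has that name.

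All animals were male Sprague-Dawley rats, 6 weeks old, and each library pooled the esophagi of 5 rats. The control received 5 fractions of 0 Gy and was collected on day 7, and the single-dose group received 1 fraction of 35 Gy and was also collected on day 7. The fractionated groups received 7 Gy on each of 5 days and were collected on day 7 or day 14, so no unirradiated library from day 14 stands beside the day 14 group. Tissue was stored cold and shipped before digestion, and dead cells were removed. Each group is 1 pooled library, so the differences between groups were neither replicated nor tested, and the intervals given are 95% intervals for counting error only.

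The rat esophagus has an outer coat of striated muscle. Its satellite cells lie under the sheath of each muscle fibre, express Pax7 and rest until injury, when they divide as Myod1-positive myoblasts, then switch on Myog, leave the cell cycle and fuse into fibres. Muscle of the head and esophagus arises from pharyngeal mesoderm, in which Tbx1 and Isl1 are active, whereas trunk and limb muscle depends on Pax3. The study's groups allow resting, activated and lost satellite cells to be compared across dose schedules and times.

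The libraries held 59805782 to 109618791 UMIs. Members had median depths of 5023 UMIs in the control, 3629 after the single dose, 1691 at fractionated day 7 and 4245 at fractionated day 14, against 6541, 5962, 5115 and 6065 in the other cells. No member barcode was shared between libraries, and pairs of libraries shared 22 to 35 kept barcodes. A doublet caller marked 12 control members and 1 single-dose member, and it called 2.33% to 4.00% of all kept cells where 8.37% to 10.0% was expected from loading, so uncalled doublets may remain.

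The regulatory sequences of 4 genes in the account below are shown first, because Chrna1, Acta1 and Klhl41 differ between the states of the cells and Cpa1 sets the cells apart from the rest of the tissue. Chrna1 encodes the muscle acetylcholine receptor subunit used in the member rule, Acta1 skeletal muscle actin, Klhl41 a sarcomere-stabilising protein, and Cpa1, a carboxypeptidase best known from pancreatic acinar cells, ranked first in the 3 irradiated libraries among genes higher in members than in the other cells. The windows run from 250 bases before to 50 bases after the gene start in RefSeq's annotation of GRCr8, a later build than those of the count matrices, at chr3:78877304-78877603 (minus strand), chr19:68784145-68784444 (minus strand), chr3:74841868-74842167 (plus strand) and chr4:60224551-60224850 (plus strand). Capitals mark CAGCTG, an E-box of the kind that Myod1 and Myog proteins bind. The motif reads the same on both strands.
Chrna1: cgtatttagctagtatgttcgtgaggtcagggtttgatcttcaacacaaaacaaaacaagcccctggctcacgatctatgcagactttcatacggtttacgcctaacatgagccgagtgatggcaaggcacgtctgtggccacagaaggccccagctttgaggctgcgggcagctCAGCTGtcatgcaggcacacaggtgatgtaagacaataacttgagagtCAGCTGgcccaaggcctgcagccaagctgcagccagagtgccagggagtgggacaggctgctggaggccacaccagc
Acta1: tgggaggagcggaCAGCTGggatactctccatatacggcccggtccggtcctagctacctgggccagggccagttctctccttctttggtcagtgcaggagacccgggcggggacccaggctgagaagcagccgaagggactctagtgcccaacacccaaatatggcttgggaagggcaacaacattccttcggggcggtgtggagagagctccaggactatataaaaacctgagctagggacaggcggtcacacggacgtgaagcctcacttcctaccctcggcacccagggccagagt
Klhl41: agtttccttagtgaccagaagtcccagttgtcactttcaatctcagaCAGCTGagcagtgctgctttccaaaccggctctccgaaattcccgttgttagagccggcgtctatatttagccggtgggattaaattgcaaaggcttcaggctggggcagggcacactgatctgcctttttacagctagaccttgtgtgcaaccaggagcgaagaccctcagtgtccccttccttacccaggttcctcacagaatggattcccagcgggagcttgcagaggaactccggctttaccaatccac
Cpa1: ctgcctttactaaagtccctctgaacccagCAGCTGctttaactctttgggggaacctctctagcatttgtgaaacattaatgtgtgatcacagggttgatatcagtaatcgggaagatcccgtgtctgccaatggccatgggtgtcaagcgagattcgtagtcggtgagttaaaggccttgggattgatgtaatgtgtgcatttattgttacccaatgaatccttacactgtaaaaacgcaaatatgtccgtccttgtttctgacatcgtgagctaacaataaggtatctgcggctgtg
The motif occurs 2 times in the Chrna1 window and 1 time in each of the others. Of 33469 promoter windows of this length, 5040 (15.1%) hold it. Of the 31 genes listed for muscle differentiation and fusion, 24 had a window and 9 of these (37.5%) hold it, namely Acta1, Cav3, Ckm, Des, Jsrp1, Klhl41, Myl4, Mymx and Tnnt2. Myog, Mymk and Actc1, also on that list, are not among these 9. Among quiescence genes 3 of 21 windows hold it. The 4 windows shown all hold the motif, so they do not stand for the genes that differ between the states. A match describes the letters of the window and is not evidence of binding in these cells.

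The label was checked on textbook satellite cell genes that the rule did not use, given after Cpa1. Cpa1 itself was taken from the ranking of members over other cells in these same data. Its values therefore describe the members and do not check the label. Members of all 4 libraries carried Cpa1, in 99.3% of control members (3209 per 1000000 UMIs, written CPM below) against 7.18% of the other control cells (58.0 CPM). Its level was 5318 CPM after the single dose, 15353 CPM at fractionated day 7 and 4114 CPM at fractionated day 14, and other cells of those libraries had 4.73, 17.2 and 6.24 CPM. Textbook satellite cell genes outside the rule followed the same division in the control. Megf10, an engulfment receptor of satellite cells, was at 149 against 3.0 CPM, Fgfr4, a growth factor receptor of myogenic cells, at 117 against 2.71 CPM, and Itga7, the laminin receptor subunit, at 145 against 13.3 CPM. Calcr, the calcitonin receptor that marks resting satellite cells, was low, with 29 UMIs in the control members, 1 after the single dose, 0 at fractionated day 7 and 8 at fractionated day 14.

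Of the pharyngeal muscle factors, Isl1 set the members apart, and the trunk factor was not detected. Pax3 had 0 UMIs in the members of all 4 libraries. Isl1 was at 37.5 CPM in control members and 0.611 CPM in the other cells. Tbx1, at 24.7 CPM in members and 29.8 CPM in other cells, did not set the members apart. Isl1 was at 23.6 CPM after the single dose and at 106 CPM at fractionated day 14, which is 2.84-fold the control level (1.83 to 4.26). Pitx1, a homeobox factor, had 208 UMIs in control members (33 cells), 5 after the single dose and 1 at day 14, and its level in the other control cells was higher, at 335 CPM.

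Markers of most other cell types were low in members but not absent, and those of smooth muscle and fibroblasts were above the other cells in some libraries. Of 13 immune markers, 4 to 12 were at 0 in the members of a library, and together they took 0.00612% to 0.0429% of member UMIs against 0.0554% to 0.926% in the other cells. Blood and lymphatic endothelial markers took 0.00612% to 0.0364% of member UMIs. Cdh5, an endothelial adhesion gene, had UMIs in 29 of 611 control members, 1 of 53 after the single dose and 10 of 63 at day 14. Epithelial markers, whose Krt5 the rule limits, took 0.147% of control member UMIs, 0.0528% after the single dose, 0.0489% at fractionated day 7 and 0.00807% at day 14. In the other cells they took 0.879%, 0.868%, 1.24% and 0.140%. The fibroblast list, whose Col3a1 and Dcn the rule limits, took 0.210%, 0.199%, 0.122% and 0.256% of member UMIs in the same order, against 1.80%, 0.170%, 0.0543% and 3.20% in the other cells, so members were above the other cells in both irradiated day 7 libraries. Smooth muscle and pericyte markers took 0.135% to 0.153% of member UMIs, against 0.107%, 0.0672%, 0.0353% and 0.183% in the other cells, and were thus higher in members in 3 of 4 libraries, although the rule requires 0 Myh11 UMIs. The smooth muscle and pericyte list shares Des with the satellite cell markers and Notch3 with the quiescence genes. Dpt of the fibroblast list was at 928 CPM in control members without Myog, Mki67 or Top2a. These 2 lists thus hold genes that members may express themselves. What part these cell types have in the members' values was not tested. Markers of mature fibres took 0.0741% in the control and 0.0928% at day 14, but 0.00754% after the single dose and 0% at fractionated day 7.

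Satellite cells made up a smaller share of every irradiated library than of the control. They were 611 of 11818 control cells (5.17%, 4.78 to 5.58), 53 of 9744 cells after the single dose (0.544%, 0.408 to 0.711), 11 of 9082 at fractionated day 7 (0.121%, 0.0605 to 0.217) and 63 of 10080 at fractionated day 14 (0.625%, 0.481 to 0.799). The 3 irradiated intervals lie below that of the control. The share was 9.51-fold lower after the single dose (7.17 to 12.8), 42.7-fold lower at fractionated day 7 (23.7 to 86.0) and 8.27-fold lower at fractionated day 14 (6.38 to 10.9). From day 7 to day 14 of the fractionated schedule it was 5.16-fold higher (2.70 to 10.9). A share of cells in 1 dissociated pool does not tell fewer satellite cells apart from fewer released from the fibres or more cells of other kinds.

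The size of the difference depended on the composition of each library. Among cells with 0 Ptprc UMIs and few Krt5 UMIs, which leaves out most immune and epithelial cells, the shares were 6.17%, 1.53%, 0.295% and 0.713% in the same order. Against the control the single-dose share was then lower by 2.02 on the log2 scale, in place of 3.25. Immune cells took a 17.5-fold higher share of the single-dose library than of the control (15.3 to 20), and epithelial cells a 3.80-fold higher share at fractionated day 7 (3.59 to 4.01).

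**Figure D1:**
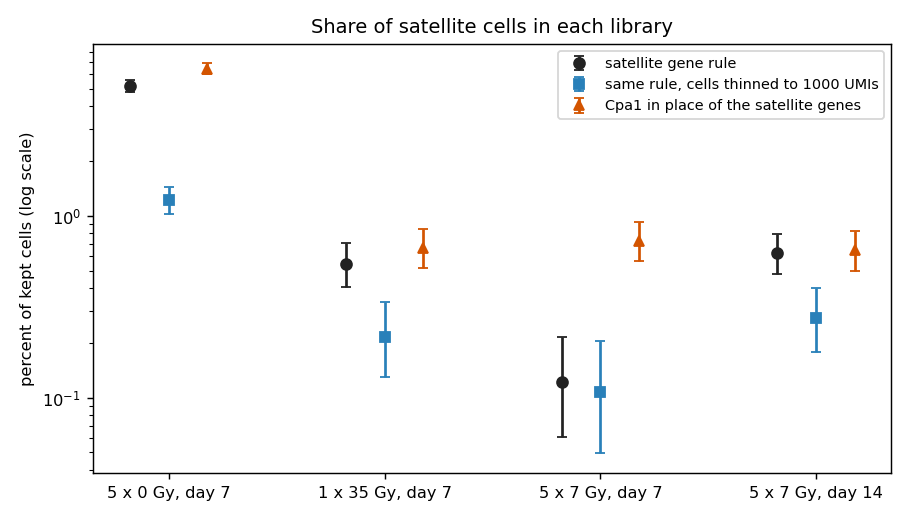
Percent of kept cells that were satellite cells (y axis, log scale) in each library (x axis), by the satellite gene rule, by the same rule with every cell thinned to 1000 UMIs, and with Cpa1 in place of the satellite genes; bars are 95% intervals for counting error. The control lies above the irradiated libraries by each rule, while fractionated day 7 lies below day 14 by the satellite gene rule (0.121% against 0.625%) and not by the Cpa1 rule (0.727% against 0.645%).

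The value at fractionated day 7 depended on the depth compared and on the genes used. None of its 11 members reached 2000 UMIs (766 to 1924), whereas 7069 of the 9082 kept cells of that library did. What part depth has in the low count was not tested. With every cell thinned to 1000 UMIs, 130, 19, 9 and 26 members were left in the 4 libraries in the same order, 1.22%, 0.216%, 0.108% and 0.274% of cells. The day 7 share was then lower than the control by 3.50 on the log2 scale, in place of 5.42. A rule chosen after the data were seen took cells with at least 3 Cpa1 UMIs and over 5 per 10000 in place of the satellite genes, with the same exclusions. It found 760 control cells (6.43%, 6.00 to 6.89), 65 after the single dose (0.667%, 0.515 to 0.850), 66 at fractionated day 7 (0.727%, 0.562 to 0.924) and 65 at fractionated day 14 (0.645%, 0.498 to 0.821).

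By Cpa1 the 3 irradiated shares had overlapping intervals. Day 14 was then not above day 7 of the fractionated schedule (log2 ratio -0.17, -0.69 to 0.34). Of the 66 Cpa1 cells at day 7, 55 were not members, and 61.8% of these had at least 1 UMI of a rule gene, against 0.437% of the other cells that passed the exclusions. Their median depth was 1085 UMIs. Cpa1 itself stood higher in the day 7 members, at a median of 154 UMIs per 10000 against 36.0 in control members, so a rule built on it is not neutral between libraries. Which of the day 7 shares is nearer to the tissue was not tested.

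Near the limits of the satellite gene rule the counts were as follows. Members with exactly 2 UMIs of the 7 genes numbered 82 of 611, 6 of 53, 4 of 11 and 4 of 63. Just outside lay 80, 36, 18 and 10 cells with 2 or more UMIs of only 1 rule gene, and 158, 90, 30 and 62 cells with 1 UMI.

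By the satellite gene rule and without thinning, satellite cells had the lowest share relative to the control among the 5 classes of wall cells compared. At fractionated day 7 the satellite interval overlaps that of fibroblasts. Fibroblasts, gated by their own markers, were 6.00-fold lower after the single dose (5.48 to 6.58), 28.3-fold lower at fractionated day 7 (23.3 to 34.6) and 1.12-fold lower at day 14 (1.07 to 1.18). Glia were 2.35-fold lower, 7.02-fold lower and 1.54-fold higher in the same order. Smooth muscle was 1.89-fold lower, 1.75-fold lower and 1.81-fold higher, and endothelial cells were 2.14-fold lower, 1.78-fold lower and 1.62-fold higher. At day 14 the satellite interval (6.38 to 10.9-fold lower) did not meet that of any of these 4 classes. Epithelial cells, which are not among the 5 classes, were also below the control at day 14, by 3.47-fold (3.11 to 3.87). They were 1.97-fold higher after the single dose and 3.80-fold higher at fractionated day 7. By Cpa1 the satellite share at fractionated day 7 was lower by 3.15 on the log2 scale, less than that of fibroblasts, which was lower by 4.82. With cells thinned to 1000 UMIs, the satellite share was 5.67-fold lower after the single dose (3.49 to 9.7). At fractionated day 7 it was then 11.3-fold lower (5.79 to 25). Both are less than the fibroblast values, which were not thinned, so the ranking at day 7 depends on depth.

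**Figure D2:**
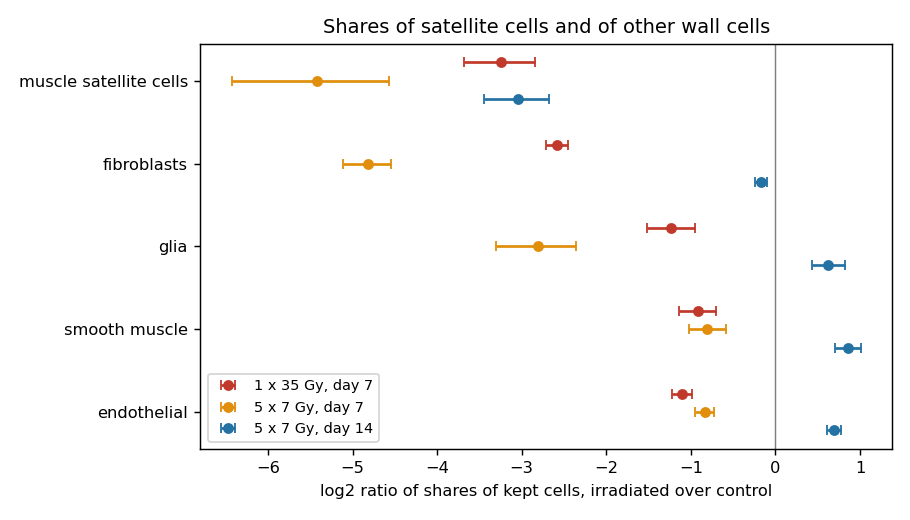
Log2 ratio of the share of kept cells in each irradiated library over the control (x axis) for satellite cells and 4 other classes of the esophagus wall (y axis), with 95% intervals for counting error. At fractionated day 14 the satellite cells stay at -3.05 while the 4 other classes lie between -0.17 and 0.86. Epithelial cells, not drawn, were at -1.79 there.

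Control satellite cells held 3 kinds of cells by the RNA of Myog, which commits a myoblast to differentiate, and of Mki67 and Top2a, which are expressed in dividing cells. Myog was found in 103 of 611 control members (16.9%, 14.0 to 20.1), and 11 of these also had Mki67 or Top2a. Another 78 (12.8%, 10.2 to 15.7) had Mki67 or Top2a without Myog, and 430 (70.4%) had neither. The last are called resting here only in the sense that none of the 3 genes was found in them. Their median depth was 4521 UMIs, below the 6669 of Myog cells and the 7934 of dividing cells, so some cells without a UMI of these genes may be shallow.

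Myog cells differed from the resting cells in the genes of fusion and of the embryonic contractile apparatus. Actc1, cardiac actin of young fibres, was 81.6-fold higher in Myog cells (60.7 to 112), Mymk, the membrane protein myomaker that fuses myoblasts, 34.9-fold (22.6 to 56.5), Klhl41 28.7-fold (17.7 to 49.5) and Csrp3, a protein of the contractile disc, 37.0-fold (20.1 to 75.6). Cdkn1c, a cell cycle inhibitor that rises when myoblasts stop dividing, stood at 2689 against 223 CPM. In the other direction Pax7 was at 15.7 CPM in Myog cells and 117 CPM in resting cells, Myf5 at 69.9 against 464 CPM, and Gpx3, a secreted glutathione peroxidase, at 148 against 1387 CPM. These genes were ranked in the cells that Myog defined, and the values describe the states with no test.

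**Figure D3:**
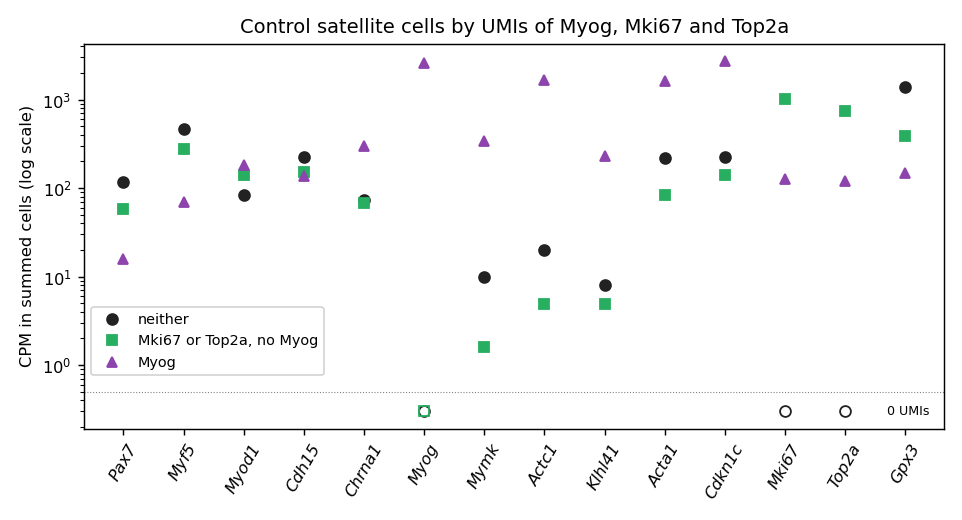
Level of 14 genes in CPM (y axis, log scale) in control satellite cells summed by state: 103 cells with Myog, 78 with Mki67 or Top2a and no Myog, and 430 with neither; open symbols below the dotted line mark 0 UMIs. Mymk, Actc1, Klhl41, Acta1 and Cdkn1c are highest in Myog cells, and Pax7, Myf5 and Gpx3 in cells with neither.

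These Myog cells were nearly missing from the single-dose and fractionated day 14 libraries. Each irradiated library had 1 member with Myog, among 53, 11 and 63. At fractionated day 7 this was 9.09% of members (0.230 to 41.3), an interval that includes the control's 16.9%. Myog stood at 2154 UMIs (585 CPM) in the control and 1 UMI (4.72 CPM) after the single dose. It was at 2 UMIs (122 CPM, 14.8 to 442) at fractionated day 7 and 1 UMI (3.67 CPM) at fractionated day 14. After each member was thinned to 2000 UMIs, 82 of 600 control members had Myog (13.7%, 11.0 to 16.7), and 0 of 49 did after the single dose and 0 of 62 at day 14. A count of 0, read as 3 counts, allows a share of cells with a Myog UMI of up to 6.12% and 4.84%, and the exact intervals end at 7.25% and 5.78%. In the other control cells thinned alike the share was 0.590%. Mymk followed, with 7.17% of thinned control members, 0 of 49 and 1 of 62.

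Cells with RNA of dividing cells were fewer too. Mki67 or Top2a was found in 73 of 600 thinned control members (12.2%, 9.66 to 15.1), 2 of 49 after the single dose (4.08%, 0.498 to 14.0) and 0 of 62 at day 14, where 3 counts would be 4.84% of cells with such a UMI and the exact interval ends at 5.78%. The intervals of the control and the single dose overlap. In the other cells of these libraries the shares were 7.92%, 13.1% and 3.52%. After the single dose the other cells thus had these genes more often than in the control, and the satellite cells less often within overlapping intervals. The make-up of the other cells differed too, with epithelial cells at 27.9% of kept cells against 14.2% in the control. By class, the median log2 ratio of genes of G2 phase and mitosis was -0.60 in fibroblasts, -0.76 in glia and -0.70 in endothelial cells. In smooth muscle it was 0.87.

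By the rule genes, which describe the members and test nothing, the remaining cells carried more Pax7 and Myf5 RNA. Pax7 was found in 18.7% of thinned control members, 40.8% after the single dose and 41.9% at day 14, and Myf5 in 50%, 77.6% and 72.6%. Myod1 was found in 18.2%, 8.16% and 12.9%. Chrna1 stood at 123 CPM in the control, 33.0 CPM after the single dose and 14.7 CPM at day 14. Among resting cells alone, Pax7 per UMI was 1.99-fold the control after the single dose (1.41 to 2.74) and 2.35-fold at day 14 (1.79 to 3.06). The rule asks for 2 UMIs at any depth, so a shallower cell needs more rule gene RNA per UMI to enter. Together the rule genes took 0.0897%, 0.135%, 0.150% and 0.232% of member UMIs at median depths of 5023, 4245, 3629 and 1691. What part this selection has in the Pax7 and Myf5 values was not tested.

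In the remaining cells after the single dose, the muscle differentiation and cell division genes were low. Single genes of matrix, growth factor and metal response lists were high, while the medians of those lists were near the control. A gene is counted here when its CPM over the summed members differed at least 2-fold from the control, with at least 20 UMIs over both libraries. By this rule 9.67% of 8648 genes were higher and 13.5% lower, and with a minimum of 10 UMIs expected in the smaller library 4.56% of 2652 were higher and 14.2% lower. Of 24 measured genes of differentiation and fusion, 1 was higher and 14 were lower (median log2 ratio -1.35), and 9 had 0 UMIs, among them Mymk, Acta1, Actc1, Klhl41 and Tnnt2, cardiac troponin T of young fibres. Acta1 had 1881 UMIs in control members and 0 after the single dose, at least 36.1-fold lower against a floor of 3 counts in that library, and Actc1 was at least 27.1-fold lower. Of 29 genes of G2 phase and mitosis 0 were higher and 21 lower (median -1.81), with Mki67 at 198 and 9.43 CPM. Within resting cells 6 of the latter genes could be measured, with a median of 0.00 and 1 lower. These 6 are what is left after cells with Mki67 or Top2a were taken out.

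Genes that mark the resting state were near the control as a group after the single dose. Of 21 measured quiescence genes 1 was higher and 2 were lower, with a median log2 ratio of -0.17 against 0.00 over all genes. Spry1, an inhibitor of growth factor signalling that holds satellite cells at rest, was 2.19-fold lower (1.32 to 3.94), and Cdkn1c 11.6-fold lower (6.89 to 21.2). The Cdkn1c ratio is over all members, and in the control this gene stood at 2689 CPM in Myog cells and 223 CPM in resting cells. After the single dose it was at 66.0 CPM on 14 UMIs, of which 8 lay in 1 cell. In the other cells Spry1 and Cdkn1c were lower too, by 2.07 and 3.25 on the log2 scale. Hes1 and Heyl, targets of the Notch pathway that maintains the stem cell state, were at 156 and 84.9 CPM against 98.1 and 74.4 CPM in the control. Of 10 Notch pathway genes 0 were higher and 3 lower. Activation and growth genes gave 1 higher and 4 lower of 23 (median -0.29). Myc, a growth regulator, was at 33.0 against 249 CPM, and Tnfrsf12a, a receptor of activated myoblasts, at 94.3 against 470 CPM. Myc is also in the list of immediate-early genes described below.

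Some genes of secreted and matrix proteins were far above the control in single-dose members, without a shift of their lists. Of 25 matrix and adhesion genes 5 were higher and 2 lower (median 0.02), and with 10 UMIs expected 1 of 14 was higher. Growth factors and their receptors gave 5 higher and 2 lower of 20 (median 0.01), and senescence and fibrogenic genes, among them Mmp2, Igfbp3, Postn and Timp1, gave 5 higher and 6 lower of 19 (median -0.47). Fn1, fibronectin of the stem cell niche, stood at 111 CPM in the control, with UMIs in 40.4% of members, and at 1075 CPM after the single dose, with UMIs in 75.5%, which is 9.65-fold higher (8.17 to 11.4). Mmp2, a matrix protease, was 10.1-fold higher (7.69 to 13.1), Igfbp5, an insulin-like growth factor binding protein made by muscle cells, 6.42-fold (5.44 to 7.55), Igfbp3 8.35-fold (5.52 to 12.4), and Postn, a matrix protein of healing tissue, 5.64-fold (4.06 to 7.74). Timp1, an inhibitor of matrix proteases, was 3.34-fold higher (3.04 to 3.68). In the other cells of the library, Fn1, Mmp2, Igfbp5, Igfbp3 and Postn were lower than in the control, by 0.81, 0.79, 2.23, 3.29 and 5.32 on the log2 scale. Fibroblasts, however, were 5.50% of kept cells in that library and 33.0% in the control. By class, the matrix and adhesion median was 0.29 in fibroblasts, 0.29 in glia, 0.08 in smooth muscle and -0.40 in endothelial cells. What part the make-up of the other cells has in their lower values was not tested. Fn1 and Mmp2 kept ratios of 8.33 and 8.03 among resting cells.

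Single-dose members also held more RNA of 3 secreted or metal-binding antioxidant proteins. Gpx3 stood at 939 CPM in the control, 5540 after the single dose, 5688 at fractionated day 7 and 3912 at day 14, and was found in 74.1%, 100%, 90.9% and 95.2% of members. Among resting cells it was 4.21-fold higher than the control after the single dose (3.92 to 4.51). Mt2A, a metallothionein, was 4.14-fold higher (3.70 to 4.63) and Sod3, the secreted superoxide dismutase, 3.77-fold (2.55 to 5.42). In all, 4 of 19 genes of this list were higher and 0 lower, with a median of 0.10.

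The largest ratios after the single dose were held by part of the cells. Chi3l1, a secreted chitinase-like glycoprotein, was at 1546 CPM against 7.33 CPM in the control, 211-fold higher (142 to 325), with UMIs in 25 of 53 members. It was also higher in the other cells of that library, by 6.51 on the log2 scale. Spp1, osteopontin, was 91.1-fold higher, but its 126 UMIs lay in 8 cells and 46 of them in 1 cell. Nppc, the precursor of C-type natriuretic peptide, was 10.7-fold higher (8.67 to 13.0) with UMIs in 19 cells, and was lower in the other cells by 4.03 on the log2 scale. Edn3, the vasoactive peptide endothelin 3, was at 575 CPM in these members, 155 CPM in the control and 396 CPM at day 14, and at 0.898 CPM in the other single-dose cells.

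**Figure D4:**
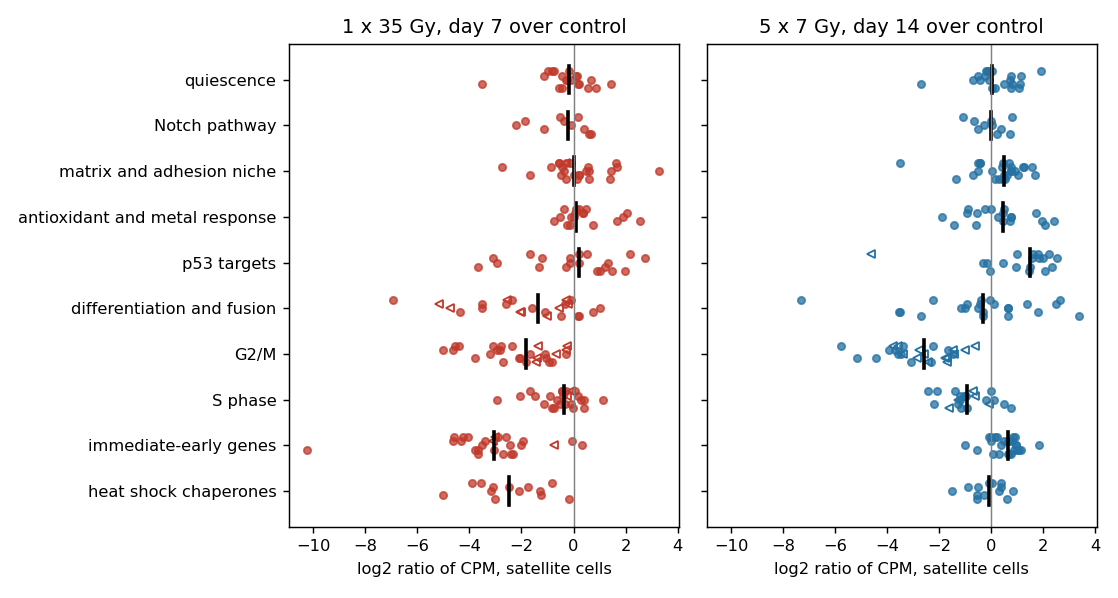
Log2 ratio of CPM in summed satellite cells over the control (x axis) for every measured gene of 10 lists (y axis), after the single dose (left) and at fractionated day 14 (right); black bars are list medians and open triangles are genes at 0 UMIs set to a floor of 3 counts. Immediate-early and heat shock genes lie left of 0 after the single dose (medians -3.04 and -2.50), p53 targets lie right of 0 at day 14 (median 1.51), and G2/M genes lie left of 0 in both.

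Genes of acute stress separated the libraries in satellite cells as in the rest of the tissue. Immediate-early genes, which are switched on within minutes and also by tissue digestion, took 5.78% of control member UMIs, 0.450% after the single dose, 0.0918% at fractionated day 7 and 9.38% at day 14. The other cells had 3.91%, 0.282%, 0.0731% and 4.40%. After the single dose 22 of 26 were lower in members (median -3.04), with Fos at 13840 CPM in the control and 580 CPM, and Atf3 at 21275 UMIs in the control and 1 UMI. Heat shock chaperones took 3.01%, 0.721%, 0.336% and 3.17% of member UMIs. The immediate-early medians of the other classes after the single dose were -3.29 in fibroblasts, -3.20 in glia, -2.97 in smooth muscle and -2.93 in endothelial cells. Control and day 14 thus stand on one side and both irradiated day 7 libraries on the other, and the part of this split in other differences between these libraries was not tested.

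The inflammatory list followed the same division in satellite cells. After the single dose 9 of 20 genes were lower and 2 higher. Cxcl1, a neutrophil chemokine, was at 3361 CPM in the control and 42.4 CPM, 79.2-fold lower (41.7 to 173), and at 3696 CPM at day 14. Nfkbia, the feedback inhibitor of NF-kB, was at 985, 51.9 and 1210 CPM in the control, single-dose and day 14 members.

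The p53 pathway, in which DNA damage activates a transcription factor that stops the cell cycle or triggers death, divided into 2 groups of genes after the single dose. Of 20 measured targets 7 were higher and 6 lower, with a median of 0.22. With 10 UMIs expected in the smaller library, 3 of 10 were higher and 5 lower and the median turned to -0.76, so the list had no direction that held under both minimums. Aen, an apoptosis-enhancing nuclease, was 6.75-fold higher (3.87 to 11.4), Ccng1, cyclin G1, 4.51-fold (3.27 to 6.13), Fas, a death receptor, 3.97-fold (1.59 to 8.71), Phlda3, an inhibitor of Akt signalling, 2.81-fold (2.35 to 3.33), and Bax, a pro-apoptotic protein, 2.48-fold (1.91 to 3.18). Lower were Mdm2, the ligase that degrades p53, by 2.32-fold (1.40 to 4.17), Plk2, a stress kinase, with 2 UMIs (8.53-fold, 2.34 to 70.7), and Btg2 and Plk3, lower by 3.66 and 2.95 on the log2 scale. Btg2 is also an immediate-early gene. Cdkn1a, the cell cycle inhibitor p21, was at 355 CPM in the control and 415 CPM (1.17-fold, 0.930 to 1.45), a difference within counting error. Among resting cells it was 1.43-fold higher (1.13 to 1.79). In the other cells Cdkn1a was lower by 1.11 and Mdm2 by 1.42 on the log2 scale.

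At fractionated day 14 the p53 targets were higher as a list. The background at this comparison was 9.07% of 8688 genes higher and 13.9% lower, or 3.62% and 11% of 3228 with 10 UMIs expected in the smaller library, and the median over all genes was -0.07. Of 19 measured targets 11 were higher and 1 was lower, with a median of 1.51. Cdkn1a stood at 1221 CPM in 85.7% of members against 355 CPM in 66.8% of control members, 3.44-fold higher (3.04 to 3.88), and in thinned cells in 74.2% of 62 members (61.5 to 84.5) against 43.0% of 600 (39.0 to 47.1). Mdm2 was 2.97-fold higher (2.45 to 3.59), Ccng1 4.70-fold (3.53 to 6.18), Aen 5.75-fold (3.37 to 9.53), Phlda3 2.76-fold (2.36 to 3.22) and Plk2 3.60-fold (2.77 to 4.63). Gdf15, a secreted stress cytokine, was 5.06-fold higher (3.29 to 7.63), with 33 UMIs in 15 of 63 members. Among resting cells the ratios of Cdkn1a, Mdm2 and Gdf15 were 3.71, 2.68 and 5.47. With members that had Cdh5 or Egfl7 left out, 12 of 19 targets were higher and 1 lower (median 1.49).

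The 1 lower target, Perp, is expressed mainly in epithelium and had 988 UMIs in the control members and 0 at day 14, beside epithelial markers at 0.147% and 0.00807% of member UMIs. What part free epithelial RNA has in that difference was not tested. The p53 medians of other classes at day 14 were 1.17 in fibroblasts, 0.96 in glia, 0.65 in smooth muscle and 0.91 in endothelial cells. In all cells other than members Cdkn1a was higher by 1.98 on the log2 scale, against 1.78 in members, and the thinned share with Cdkn1a was 62.0% against 26.6% in the control. Higher p53 targets were thus also found outside the satellite cells.

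**Figure D5:**
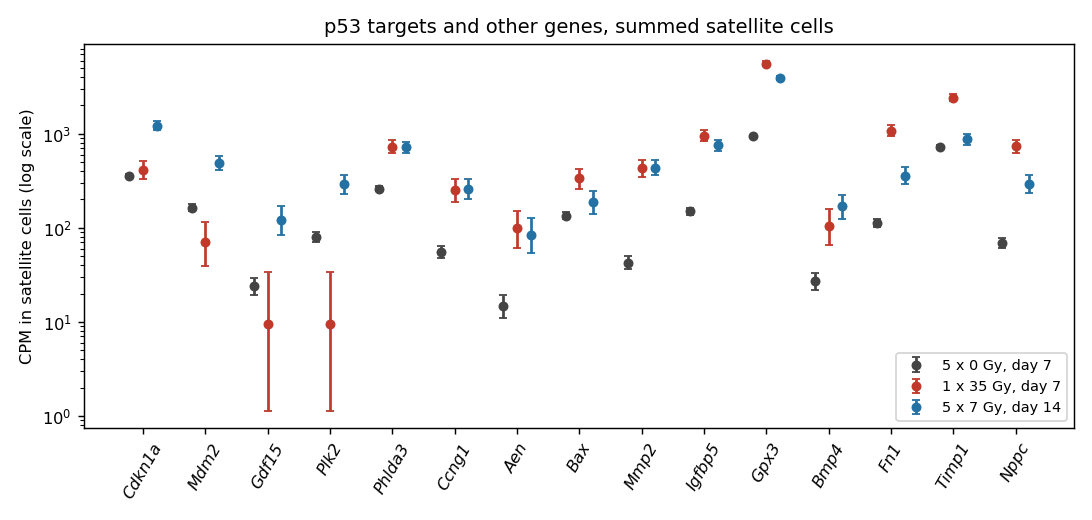
Level in CPM (y axis, log scale) of 8 p53 targets (left) and 7 other genes (right) in summed satellite cells of the control, the single-dose and the fractionated day 14 library, with exact 95% intervals for counting error. Phlda3, Ccng1 and Aen lie above the control in both irradiated libraries, while Mdm2 and Plk2 lie above it at day 14 and below it after the single dose.

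Cell division genes were low in day 14 satellite cells. Of 29 genes of G2 phase and mitosis, 26 were lower and 0 higher (median -2.59), and 16 had 0 UMIs, among them Top2a and Ube2c, which controls exit from mitosis. Mki67 had 731 UMIs in the control and 1 at day 14. Stmn1, a tubulin-binding protein of dividing cells, was at 837 against 29.3 CPM, 28.5-fold lower (14.5 to 66.2), while in the other cells it was lower by 0.98 on the log2 scale. Of 26 S phase genes 12 were lower and 0 higher. The G2/M medians of the other classes were -0.49 in fibroblasts, -1.76 in glia, -0.24 in smooth muscle and -0.76 in endothelial cells. Within resting satellite cells the G2/M median was -0.98 over 6 genes.

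Some regulators of rest were higher at day 14. Of 21 quiescence genes 4 were higher and 1 was lower (median 0.04), and within resting cells 1 of 20 was higher and 0 lower. Spry1 stood at 155 CPM in the control, 70.7 after the single dose and 341 at day 14, 2.20-fold above the control (1.75 to 2.75) and 1.79-fold among resting cells. Calcr was 3.72-fold higher (1.47 to 8.35) on 8 UMIs. Cdkn1c was 6.52-fold lower over all members (4.61 to 9.55) and 1.84-fold lower among resting cells. Growth factors and their receptors gave 7 higher and 1 lower of 20, with Bmp4, a morphogen that keeps myoblasts dividing and undifferentiated, 6.21-fold higher (4.28 to 8.89), Igfbp5 5.04-fold (4.27 to 5.93) and Igf2 2.82-fold (1.97 to 3.95). Bmp4 was also 3.82-fold higher after the single dose (2.29 to 6.10).

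Some matrix and antioxidant genes that were higher after the single dose were also higher at day 14. Of 26 matrix and adhesion genes 5 were higher and 2 lower (median 0.48), and of 19 antioxidant genes 4 were higher and 2 lower (median 0.44), or 3 and 2 of 17 with 10 UMIs expected. Mmp2 was 10.2-fold higher (7.99 to 13.1), Fn1 3.23-fold (2.56 to 4.03), Gpx3 4.17-fold (3.89 to 4.46) and Mt2A 3.28-fold (2.93 to 3.66). Timp1 was 1.21-fold higher (1.05 to 1.38), against 3.34-fold after the single dose. Cxcl12, a chemokine of the stem cell niche, was 4.47-fold higher (3.10 to 6.32), and Csf1, a macrophage growth factor, 6.39-fold (3.44 to 11.5). Chi3l1 had 0 UMIs. Vcan, versican of the provisional matrix, had 1 UMI against 23 UMIs after the single dose and 152 in the control. These day 14 ratios and those of the single dose share the control library. In the other cells at day 14, Mmp2 was higher by 2.25 and Fn1 by 0.69 on the log2 scale.

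Fibre genes at day 14 came mostly from 1 cell. Differentiation and fusion genes gave 5 higher and 7 lower of 24 (median -0.32), and the higher ones included Tnnc2 and Tnni2, subunits of fast troponin, Myl1, a fast myosin light chain, and Tnnt3. Of 368 UMIs over 7 fibre genes (Tnnc2, Myl1, Tnni2, Tnnt3, Mylpf, Myh2 and Acta1), 335 (91.0%) lay in 1 cell of 4252 UMIs. The cell with the next highest count had 4. The first had 4 UMIs of the rule genes, 1 of Myog and 0 of Cpa1. Without cells that had Myog, Mki67 or Top2a, this cell included, 0 of 19 measured genes of the list were higher and 5 lower (median -0.58). In the control 1 cell held 463 of the 1881 Acta1 UMIs, and 40.3% of members had an Acta1 UMI.

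The 11 members at fractionated day 7 held 16349 UMIs in all, too few for gene lists. Cpa1, Itm2a, a membrane protein of early myogenic cells, Gpx3 and Lpl, lipoprotein lipase, led their difference from the other cells of that library, with 251, 46, 93 and 35 UMIs. G2/M genes took 3 UMIs and immediate-early genes 15. The 66 Cpa1 cells, at 97753 UMIs, gave more depth. Against the 760 control Cpa1 cells, Myog was at 40.9 against 509 CPM, 12.4-fold lower (4.85 to 45.7), and Mki67 at 10.2 against 187 CPM on 1 UMI. Igfbp5 was 7.30-fold higher (5.90 to 8.96), Mmp2 11.6-fold (8.24 to 16.1), Gpx3 5.71-fold (5.22 to 6.23) and Fn1 2.91-fold (1.95 to 4.19).

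Of the p53 targets in these day 7 cells, Ccng1 was 2.98-fold higher (1.68 to 4.95), while Mdm2, on 2 UMIs, was 7.93-fold lower (2.19 to 65.6) and Cdkn1a 1.99-fold lower (1.23 to 3.42). Fos was at 20.5 against 14147 CPM. Myf5, which the Cpa1 rule did not use, was at 747 against 336 CPM, 2.23-fold higher (1.74 to 2.82). Pax7 was at 51.1 against 75.3 CPM, on 5 UMIs. Low Myog and high Mmp2, Igfbp5 and Gpx3 were thus seen in the cells of all 3 irradiated libraries, each set against the same control library, with the fractionated day 7 values resting on the Cpa1 rule.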

How the data were processed

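The deposited files are matrices of raw UMI counts, 1 per library; per the submitters' processing notes, the authors counted reads with software that included Cell Ranger 5.0.0, and the genome is named both mRatBN7.2 and rn7. The sources used here do not say which gene annotation was counted. The matrices hold 32623 features and 45348 barcodes. Barcodes with at least 500 UMIs and at most 20% mitochondrial UMIs were kept. The members and the gene lists were chosen with earlier results of these data known.

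Member counts were summed per library. Ratios of counts have exact conditional binomial intervals, and shares have Clopper-Pearson intervals, both at 95%. A gene entered a list count with at least 20 UMIs over the 2 libraries, and a gene at 0 was set to a floor of 3 counts in that library. Shares of cells with a UMI were compared after each cell was thinned to 2000 UMIs. Of 484 symbols in the lists, 22 matched no feature. Named genes were the rule genes, the first 4 of each list, up to 6 more per list and comparison, and the 10 highest and 10 lowest genes with at least 50 UMIs, all ranked by the bound of the ratio nearest to 1; the 20 genes leading members over other cells were ranked alike. Other list members, Cdh5 and the Cpa1 cells were picked after their values were seen. Other classes were gated by their own markers. Scripts used Python 3.11.15 with numpy 2.4.6, pandas 2.3.3, scipy 1.17.1, matplotlib 3.10.9 and the Scrublet doublet caller of scanpy 1.11.5. They were tested on simulated data. Of genes left unchanged there, 12.4% in the single-dose and 12.05% in the day 14 comparison passed the 2-fold rule with 20 UMIs. With 10 UMIs expected in the smaller library these values were 1.10% and 1.16%. What part counting error has in the list counts was not tested. 1 gene of the lists is not reported here.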

Additional observations from a re-analysis of the deposited data

How the results depend on the processing

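Over the 20 main results, 144 of 158 alternative values stayed within the counting interval of the reported value (for lists, between the medians of its genes' bounds), 13 lay beyond it and 1 reversed. For the 26 other results all 260 alternatives run stayed within it. The list ranges were wide, for example -1.32 to 1.43 for single-dose p53 targets and -6.14 to -0.70 for G2/M. Staying within such a range therefore says little about a list. A list median of less than 2-fold was never counted as reversed, and the p53 change of sign given below was counted as within its range. Log2 ratios of shares after the single dose were -3.25 as reported, -2.76 after thinning to 2000 UMIs, -2.50 after thinning to 1000, -2.62 among cells with 0 Ptprc UMIs and -2.02 among those with few Krt5 UMIs as well. At fractionated day 7 the ratio was -5.42 as reported, -4.39 among cells with 0 Ptprc and few Krt5 UMIs, -3.50 after thinning to 1000 and -3.15 by Cpa1. Thinning to 2000 left 0 members there and gives no value. At day 14 the ratio of -3.05 became -2.16 after thinning to 1000. Day 14 over day 7 of the fractionated schedule was 2.37, then 1.27 with the narrower denominator, 1.35 after thinning to 1000 and -0.17 by Cpa1. The control share with Myog was 13.7% thinned and 16.9% not thinned. Without cells that had Myog, Mki67 or Top2a the G2/M medians were 0.00 after the single dose and -0.98 at day 14, where the setting itself removes the dividing cells. The single-dose p53 median of 0.22 turned to -0.76 with 10 UMIs expected in the smaller library, where 10 of the 20 targets could be measured. For the other shifts the cause was not tested.

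Thinning to 1000 UMIs, the Cpa1 rule, the exclusion by Cdh5 and Egfl7, the minimum of 10 expected UMIs and the restriction to cells without Myog, Mki67 and Top2a were chosen after the data were seen. Depth limits the fractionated day 7 cells most, where 11 members hold 16349 UMIs. No paired analysis was possible because each group is 1 pooled library.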
